A study of Homo sapiens with 54 samples.

Results

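The genes SF3B6, TP53I3, FAM228B, DERA, ACSS1 and ZNRF1 lie at some of the strongest Maf1 sites that ChIP-seq found in T47D cells. These sites held no region for POLR3A, the catalytic subunit of RNA polymerase III. The genes were chosen by their Maf1 values. In both Maf1 lists the region with the highest −log10 q-value has its summit between SF3B6 and FAM228B and spans the start sites of both. The 3 highest R5020 Maf1 regions with no vehicle Maf1 region within 1 kb lie in DERA, ACSS1 and ZNRF1. The Maf1 values below are therefore a description of that choice. The 6 genes are 6 of 20037 protein-coding genes. With 20 kb on either side their spans merged into 4 windows, because SF3B6, TP53I3 and FAM228B are neighbours on chromosome 2. The windows held 613 of the 518593 regions of the 16 deposited lists.

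T47D is a human breast cancer cell line that expresses the oestrogen and progesterone receptors. Cells were given ethanol as vehicle or R5020, a synthetic progestin, for 1 h. The labels name 54 libraries in 18 groups of 3, made with 8 antibodies (Maf1, the progesterone receptor PR, Brf1, acetylated lysine 27 of histone H3, written H3K27Ac, POLR3A, POLR3C, POLR3G and POLR3GL) or as input. The files hold 1 list of regions per antibody and treatment, so no value has a replicate error and no test of a treatment difference was possible. Nothing in the labels says that the 3 libraries of a group were separate cultures, and the lists do not give sequencing depth. Of the libraries titled R5020, 4 carry a treatment tag of ethanol: 2 of POLR3C, 1 of POLR3G and 1 of POLR3GL. Values of those 3 R5020 lists rest on the titles.

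The lists differed in size, from 370 regions for vehicle Brf1 to 173129 for R5020 PR, and Maf1 had 3049 vehicle and 22683 R5020 regions. Folds below are the authors' fold enrichments at the summit, the highest point of a region, and were ranked only within their own list. The cell type was checked with H3K27Ac regions within 1 kb of a gene's end. All 8 luminal markers had one in both treatments, including ESR1, PGR, GATA3 and FOXA1. Of the 4 basal markers TP63 and ACTA2 had one and KRT5 and KRT14 had none. Of the 4 blood and stroma markers CD3E and COL1A1 had one in vehicle, COL1A1 and PECAM1 in R5020, and PTPRC had none.

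Maf1 is a repressor of RNA polymerase III, the enzyme that makes transfer RNAs and other small RNAs. It binds the polymerase and keeps it from joining Brf1, a subunit of the initiation factor TFIIIB that sits at polymerase III promoters. POLR3A is the largest subunit of the enzyme, POLR3C belongs to a trimer that acts in initiation, and POLR3G and POLR3GL are alternative forms of 1 subunit. Maf1 has also been described at genes read by RNA polymerase II. PR binds DNA as a receptor activated by progestins, and H3K27Ac marks active promoters and enhancers.

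The 2 stretches below are shown because they hold the strongest Maf1 site of both lists. They are the 250 bases before the start sites of SF3B6 and FAM228B, from RefSeq on GRCh38.p14, each written 5′ to 3′ on the strand of its gene. The start sites point away from each other and lie 507 bp apart, and 6 bases separate the stretches. SF3B6 reads from chr2:24076327-24076576 on the minus strand, with ETS cores (CCGGAA or TTCCGG) in capitals. FAM228B reads from chr2:24076583-24076832 on the plus strand, with the repeated run GGGGCGGG in capitals.
SF3B6: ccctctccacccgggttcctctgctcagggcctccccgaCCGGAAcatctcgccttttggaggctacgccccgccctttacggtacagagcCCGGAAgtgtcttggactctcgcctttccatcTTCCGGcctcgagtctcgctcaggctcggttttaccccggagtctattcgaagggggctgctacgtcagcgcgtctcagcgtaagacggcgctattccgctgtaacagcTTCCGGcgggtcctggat
FAM228B: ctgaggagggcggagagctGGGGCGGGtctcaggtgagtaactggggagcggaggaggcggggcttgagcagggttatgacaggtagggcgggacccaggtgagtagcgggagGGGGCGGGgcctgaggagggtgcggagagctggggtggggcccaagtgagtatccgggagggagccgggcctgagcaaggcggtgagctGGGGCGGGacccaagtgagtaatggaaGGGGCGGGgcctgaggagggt

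The R5020 Maf1 summit fell on base 223 of the FAM228B stretch and the vehicle Maf1 summit on base 161. Inside the same stretch lay the summits of POLR3C in vehicle (base 28), POLR3G in vehicle (base 209) and POLR3GL in R5020 (base 236). The R5020 summits of POLR3C and POLR3G fell on bases 19 and 11 of the SF3B6 stretch, at the end far from its start site. The run GGGGCGGG stood 4 times in the printed FAM228B stretch and 5 times in the 300-base window that runs from 250 bases before to 50 after the start. Over the 35116 promoters of the RefSeq table, 538 (1.53%) held any 8-base run in at least 5 non-overlapping copies. That measure was chosen after the letters were seen. How reads falling in such repeats were placed is not given in the sources used here.

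Motifs were searched as exact letters on both strands of the 300-base windows of the 6 genes, which have 8 promoter entries. The progesterone response element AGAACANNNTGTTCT was in none of the 8, and in 0.00285% of all promoters. Its half-site TGTTCT was found once, in the second promoter of ACSS1 (chr20:25032657-25032956), against 14.8% of all promoters. The half-site lies inside the full element. The polymerase III B box core GGTTCGA was in none of the 8 (0.86% of all promoters), and neither was the FOXA core TGTTTAC (3.42%). The ETS core CCGGAA was found 4 times at SF3B6, once at TP53I3 and once at DERA, and 17.2% of all promoters held it. The lead sites inside DERA, ACSS1 and ZNRF1 lie outside these windows and their letters were not analysed here.

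**Figure D1:**
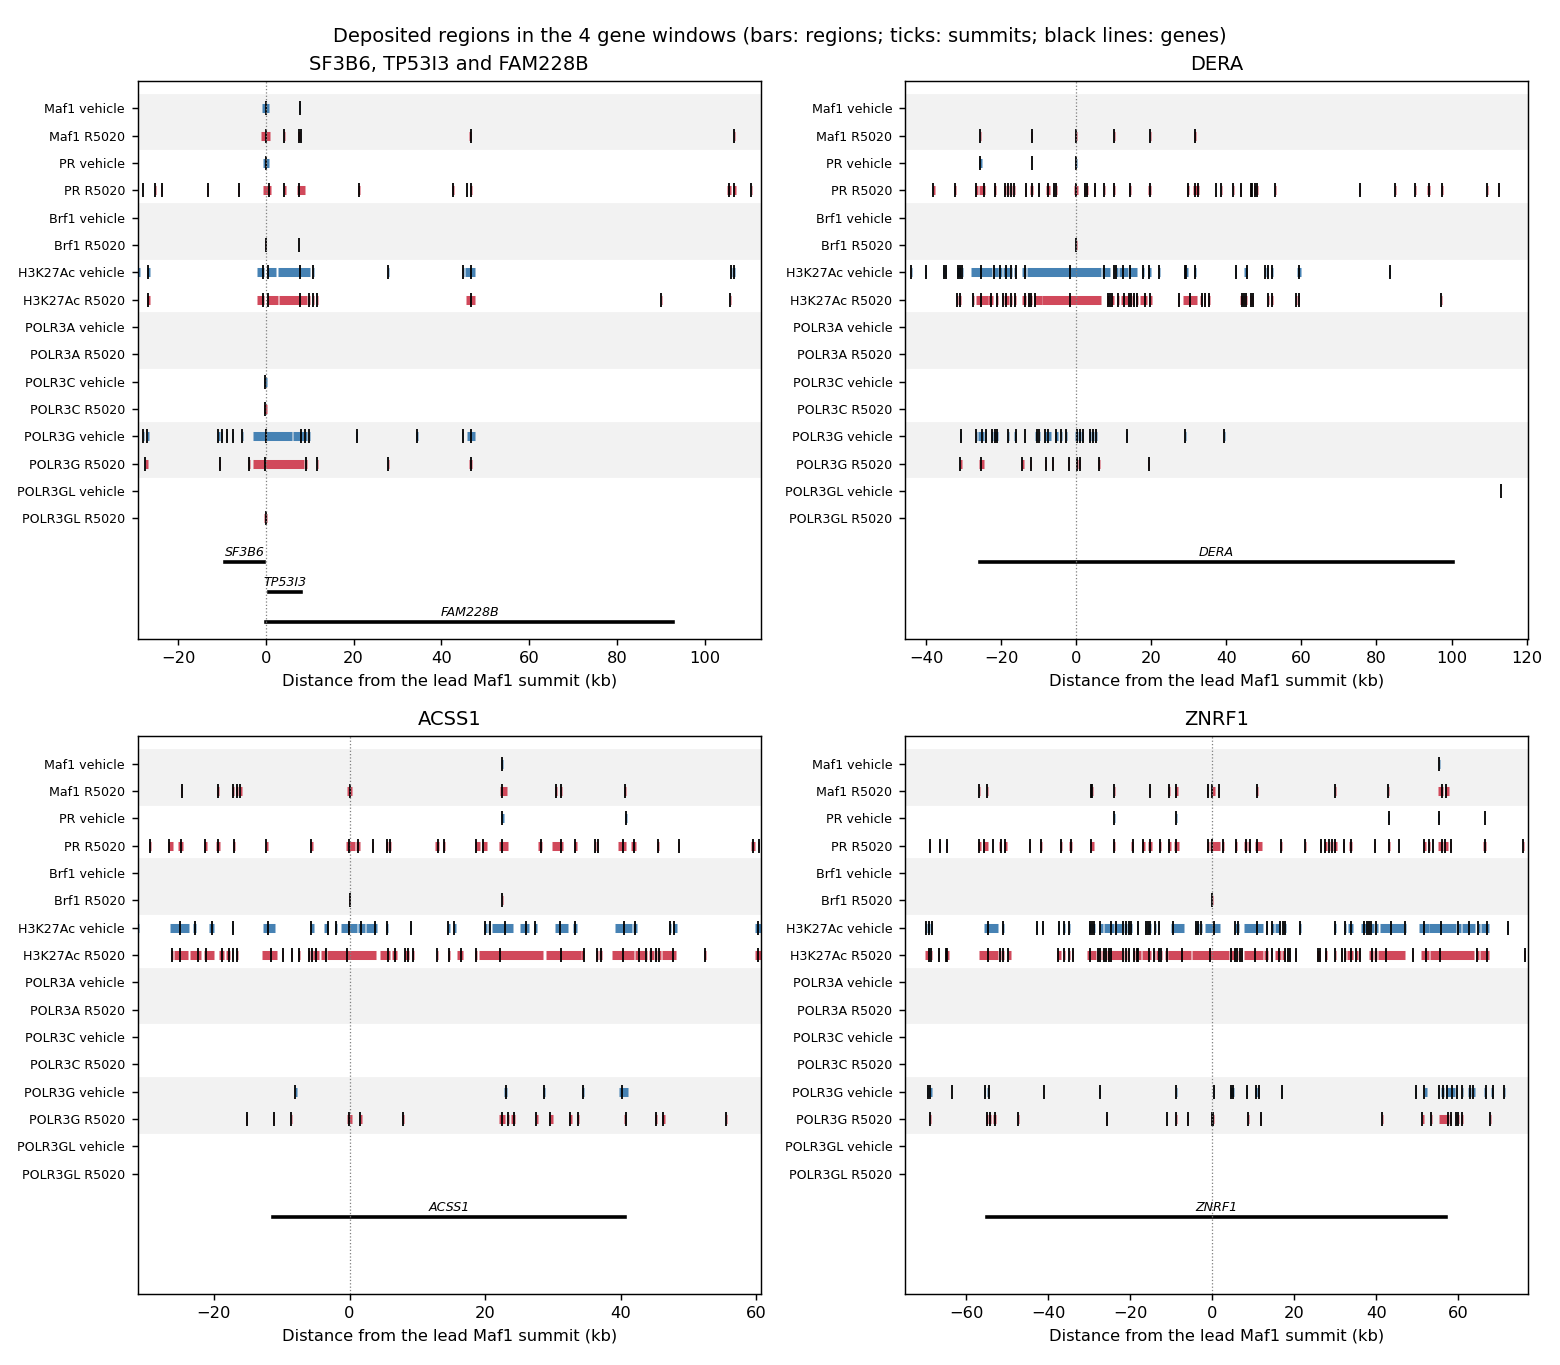
Regions of the 16 lists in the 4 windows, by distance from the lead Maf1 summit in kb; bars are regions (blue vehicle, red R5020), ticks are summits and black lines are gene spans. The POLR3A lanes are empty in all 4 windows, and the R5020 Brf1 lane holds 6 regions in all.

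In each window the Maf1 region with the highest −log10 q of the R5020 list is called the lead site. On chromosome 2 it spanned chr2:24075796-24077704 with its summit at 24076805 and a fold of 44.2, the highest of the R5020 Maf1 list. The summit lay 28 bp before the start of FAM228B and 479 bp before the start of SF3B6, which encodes a splicing factor subunit that contacts the branch point of introns. In vehicle the same place held the highest Maf1 region as well (chr2:24075886-24077424, fold 33.9), with a summit 62 bp away. Of the 4 lead sites, this one alone overlapped a vehicle Maf1 region, because the others were chosen for having none nearby.

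The other lead sites lay inside genes, far from their start sites. In DERA, which encodes deoxyribose-phosphate aldolase, the site spanned chr12:15936686-15937159 with a Maf1 fold of 41.5, and its summit lay 25.6 kb past the start. In ACSS1, the gene of the mitochondrial acetyl-CoA synthetase, it spanned chr20:25017144-25017837 with a fold of 38.0, 40.7 kb past the start. In ZNRF1, the gene of a ubiquitin ligase, it spanned chr16:75053623-75054530 with a fold of 40.8, 54.9 kb past the start. By fold these 3 ranked 2, 6 and 3 among the 22683 R5020 Maf1 regions, and by −log10 q 6, 7 and 8. The gene table gives no exons, so they were placed by distance only.

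**Figure D2:**
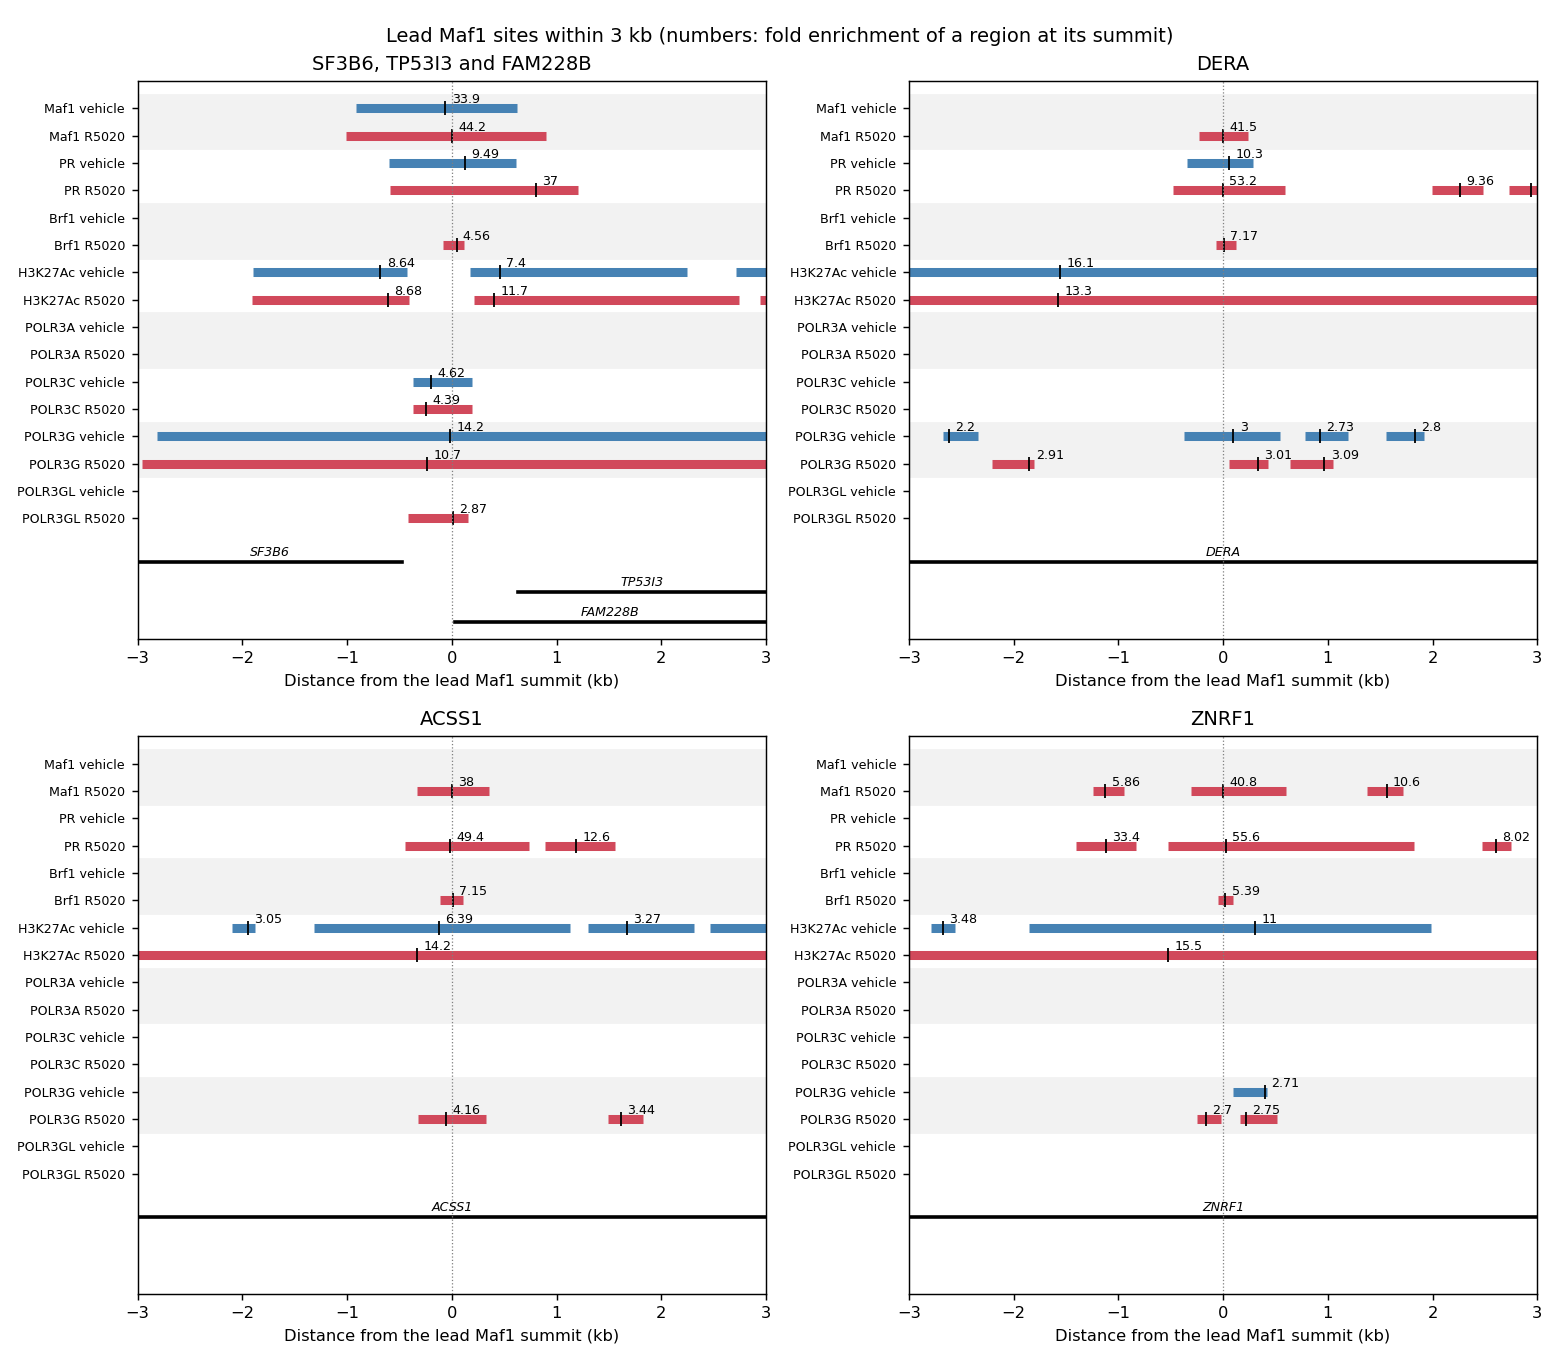
The 4 lead sites within 3 kb of the Maf1 summit, in kb on the x axis, with a lane per antibody and treatment; ticks are summits and the numbers are folds within that list. Brf1 summits sit 9 to 46 bp from the Maf1 summit in all 4, and POLR3C and POLR3GL appear on chromosome 2 alone.

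PR was at all 4 lead sites in R5020, where 82.1% of all R5020 Maf1 regions overlapped a PR region. In DERA the R5020 PR summit lay 5 bp from the Maf1 summit with a fold of 53.2, rank 640 of 173129. In ACSS1 it lay 16 bp away with a fold of 49.4, rank 1303. In ZNRF1 it lay 24 bp away with a fold of 55.6, rank 262. The chromosome 2 site differed in position: its R5020 PR summit (fold 37.0, rank 5460) lay 800 bp from the Maf1 summit, toward TP53I3. So 3 of 4 had a PR summit within 100 bp, against 57% of all R5020 Maf1 regions.

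In vehicle, PR regions overlapped 2 of the 4 lead sites, against 19.9% of all R5020 Maf1 regions. In DERA the vehicle PR region had a fold of 10.3 (rank 406 of 6663), with a summit 58 bp from the Maf1 summit. On chromosome 2 it had a fold of 9.49 (rank 473), with a summit 123 bp away. No vehicle PR region overlapped the lead sites of ACSS1 and ZNRF1, and neither had a vehicle Maf1 region. DERA had PR without Maf1 in the vehicle lists. The absence of vehicle Maf1 at the DERA, ACSS1 and ZNRF1 lead sites was part of their choice.

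Brf1 was at all 4 lead sites in R5020 and at none in vehicle. Among all R5020 Maf1 regions 2.37% overlapped an R5020 Brf1 region and 0.683% a vehicle one. The Brf1 summits lay 9 bp (DERA and ACSS1), 21 bp (ZNRF1) and 46 bp (chromosome 2) from the Maf1 summits. A Brf1 summit within 100 bp was thus present at 4 of 4, against 1.66% over the list. The chromosome 2 Brf1 region had a −log10 q of 4.05, and requiring at least 5 left Brf1 at 3 of the 4. The folds were moderate within the R5020 Brf1 list: 7.17 in DERA, 7.15 in ACSS1, 5.39 in ZNRF1 and 4.56 on chromosome 2, where the list had a median of 4.98 and a 90th percentile of 60.5. Brf1 regions in the R5020 list that overlapped POLR3A (651) had a median fold of 7.70 and a 90th percentile of 74.1. The 522 without POLR3A had a median of 4.44 and a 90th percentile of 6.39, and 333 of them (63.8%) overlapped an R5020 Maf1 region. The 4 lead sites belong to these 333.

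**Figure D3:**
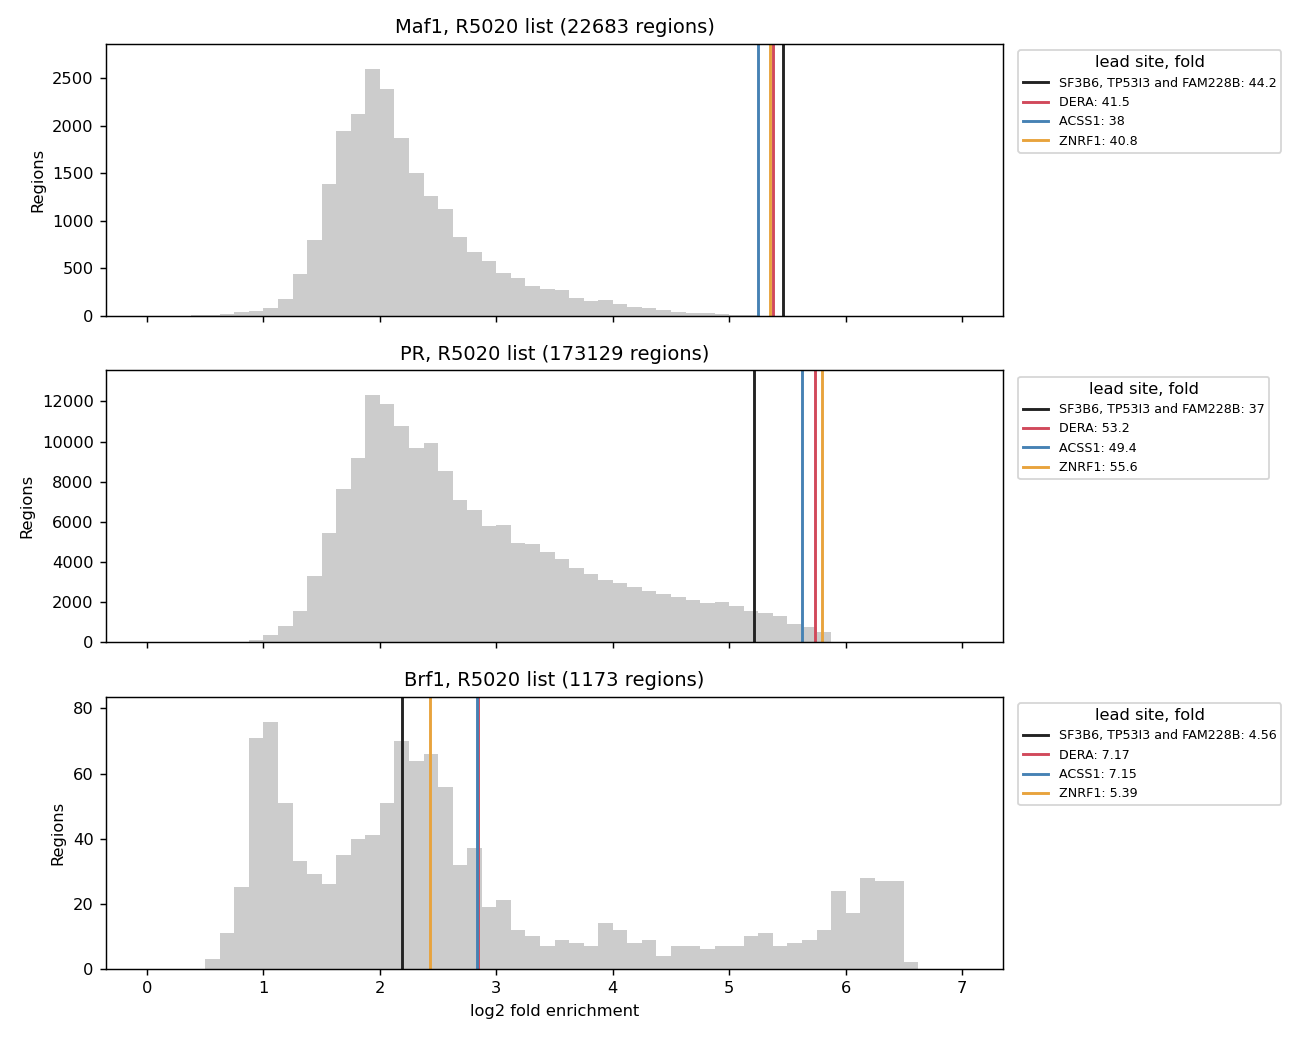
Number of regions by log2 fold enrichment in the R5020 lists of Maf1, PR and Brf1 (grey bars), with the lead sites as vertical lines. The lead sites are at the upper end of the Maf1 and PR lists and in the middle of the Brf1 list, where the lines of DERA (7.17) and ACSS1 (7.15) nearly coincide.

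How often Brf1 accompanied Maf1 varied with the rank of the Maf1 region. The lead sites were therefore set beside all R5020 Maf1 regions by rank of −log10 q, in ranges chosen after the data were seen. Of the first 100, which include the 4 lead sites, 63 overlapped an R5020 Brf1 region, and 62 of those had a Brf1 summit within 100 bp of the Maf1 summit. These 63 Brf1 regions had folds from 3.10 to 8.23. The share was 8% at ranks 101 to 1000, 2.33% at ranks 1001 to 10000 and 1.51% below. None of the first 100 overlapped an R5020 POLR3A region, and all 100 overlapped R5020 PR. Against the first 100, Brf1 without POLR3A at the lead sites is not particular to them. Vehicle PR was at 71 of the first 100, which the ACSS1 and ZNRF1 lead sites lacked.

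**Figure D4:**
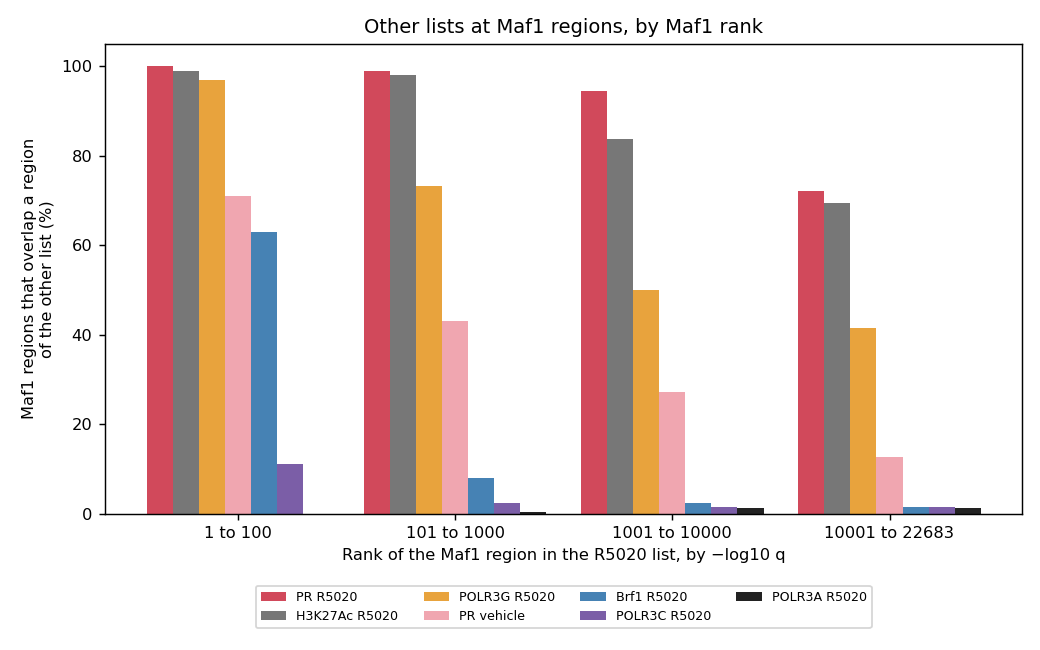
Share of R5020 Maf1 regions that overlap a region of another list (y axis, percent), in 4 ranges of Maf1 rank (x axis). Brf1 in R5020 reaches 63% in the first 100 and 1.51% in the last range, while POLR3A is at 0 in the first 100.

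H3K27Ac was at all 4 lead sites in both treatments, where 70.8% of all R5020 Maf1 regions overlapped a vehicle and 76.5% an R5020 H3K27Ac region. Its arrangement separated the sites. On chromosome 2 the Maf1 summit lay in a gap between flanking acetylated regions. In vehicle these were chr2:24074905-24076373 (fold 8.64) and chr2:24076975-24079047 (fold 7.40), and in R5020 chr2:24074899-24076399 (fold 8.68) and chr2:24077017-24079542 (fold 11.7). Of all R5020 Maf1 regions 3.71% had R5020 H3K27Ac on both sides of a summit outside it.

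The other lead sites lay within a single acetylated region in each treatment. In DERA it was 19887 bp wide in vehicle (fold 16.1) and 15825 bp in R5020 (fold 13.3). In ACSS1 it was 2441 bp (fold 6.39) and 7152 bp (fold 14.2), and in ZNRF1 3837 bp (fold 11.0) and 8905 bp (fold 15.5). The wider region was thus the vehicle one in DERA and the R5020 one in ACSS1 and ZNRF1. Widths and folds of separately called lists were not compared further. At none of the 4 lead sites was an R5020 H3K27Ac summit within 100 bp of the Maf1 summit, against 7.48% over the list.

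The sites had no POLR3A region in either treatment, nor had any other place in the 4 windows. Over all R5020 Maf1 regions 0.829% overlapped a vehicle and 1.24% an R5020 POLR3A region. Whether the polymerase itself was present at any of the sites was not tested. Regions of other polymerase III subunits were called on chromosome 2, so the absence there is of POLR3A regions only. POLR3C had regions there in vehicle (chr2:24076439-24076992, fold 4.62, rank 142 of 673) and R5020 (fold 4.39, rank 184 of 699). Of all R5020 Maf1 regions 1.47% overlapped vehicle POLR3C and 1.53% R5020 POLR3C, and the lead sites of DERA, ACSS1 and ZNRF1 did not. POLR3GL had an R5020 region on chromosome 2 of fold 2.87 (rank 381 of 603), with a summit 13 bp from the Maf1 summit. The corresponding shares for POLR3GL were 0.309% in vehicle, where no lead site had a region, and 0.331% in R5020.

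POLR3G had its highest fold of the whole vehicle list at the chromosome 2 site. That region spanned chr2:24073991-24082725 with a fold of 14.2 among 58424 regions, and its summit lay 14 bp from the R5020 Maf1 summit. The R5020 POLR3G region there spanned chr2:24073848-24085410 with a fold of 10.7, rank 32 of 46875. POLR3G was far weaker at the other lead sites within the same lists: 3.00 in vehicle and 3.01 in R5020 in DERA, 2.71 and at most 2.75 in ZNRF1, and 4.16 in ACSS1 in R5020 alone. The lists' medians were 2.80 in vehicle and 2.84 in R5020, and their 90th percentiles 3.60 and 3.64. The ACSS1 region, rank 1591 in R5020, was above the 90th percentile, and those of DERA and ZNRF1 were below it. POLR3G overlapped 3 of the 4 lead sites in vehicle and all 4 in R5020, against 47.1% and 46.4% of all R5020 Maf1 regions.

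Counted over the 14 lists of the other antibodies, the chromosome 2 site overlapped 10, DERA 7, ZNRF1 6 and ACSS1 5. No other R5020 Maf1 region of 22682 shared the exact pattern of the chromosome 2 site. A region in SNORD3A overlapped the same lists except R5020 POLR3GL, where the chromosome 2 region had a −log10 q of only 2.54. The DERA pattern was shared by 115 (0.507%), of which the highest in −log10 q lay 3111 bp from PACSIN1 and in LINC01588. The ZNRF1 pattern was shared by 57 (0.251%), led by regions in MCCC1 and BCL2L1. The ACSS1 pattern was shared by 19 (0.0838%), led by regions in LINC01881 and NCEH1. R5020 Maf1 regions with no vehicle Maf1 region within 1 kb numbered 19346, and 158 of them (0.817%) had R5020 PR and Brf1 and no POLR3A. DERA, ACSS1 and ZNRF1 were among those 158.

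Besides the lead sites the windows held 34 further R5020 Maf1 regions. In all, there were 6 regions on chromosome 2, 6 at DERA, 10 at ACSS1 and 16 at ZNRF1. In vehicle there were 2, 0, 1 and 1. Among the 20037 genes 60% had an R5020 Maf1 region within 20 kb and 19.2% a vehicle one. Of the 6 genes, 5 had a vehicle one, DERA being the exception. SF3B6, TP53I3 and FAM228B share the site chosen as the highest of the vehicle list, so they count as 1 locus, and its vehicle region follows from the choice. ZNRF1 was at the upper end in number: 0.255% of genes had 16 or more R5020 Maf1 regions. Of all genes 1.5% had at least the 10 of ACSS1, and 6.81% at least the 6 of DERA or FAM228B. SF3B6 and TP53I3 had 4 each, and 15.6% of genes had at least as many. These counts cover the gene span with 20 kb on either side and were not adjusted for gene length. DERA spans 126050 bp, ZNRF1 111971 bp, FAM228B 92806 bp and ACSS1 51903 bp, but SF3B6 8741 bp and TP53I3 7402 bp.

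TP53I3, a p53-induced gene for a quinone oxidoreductase, had a second site near its start. It spanned chr2:24084095-24084594 with an R5020 Maf1 fold of 13.1, and a vehicle Maf1 region of fold 4.27 overlapped it. Here the R5020 PR region had a fold of 51.7 with its summit 20 bp from the Maf1 summit. A Brf1 region of fold 4.74 had its summit 3 bp away, and no vehicle PR region was present. In R5020, PR and Maf1 summits thus nearly met at TP53I3 and lay 800 bp apart at the SF3B6 and FAM228B promoters of the same window. At those promoters the R5020 PR region was 1793 bp wide with a single summit given, and the vehicle PR summit lay 123 bp from the Maf1 summit.

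ACSS1 also had a second strong site, chr20:25039628-25040662, with an R5020 Maf1 fold of 31.6. It overlapped vehicle Maf1 (fold 3.08), vehicle PR (fold 3.89), R5020 PR (fold 44.2, summit 65 bp away) and R5020 Brf1 (fold 5.46, summit 107 bp away). In DERA a Maf1 region at chr12:15968321-15968802 (fold 14.5) overlapped PR of fold 51.2 and no Brf1. ZNRF1 had such regions at chr16:75044853-75045563 (fold 14.0, PR 53.5) and chr16:75055308-75055648 (fold 10.6), again with no Brf1. The last of these shares its PR region with the lead site.

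The promoters of the genes inside which the lead sites lie held weaker Maf1 regions. At the DERA start the R5020 Maf1 region had a fold of 5.38, at the ZNRF1 start 3.92, and at the first ACSS1 promoter (chr20:25058090-25058389) 3.36. The second ACSS1 promoter overlapped none. TP53I3 had 2.53 at its start and the second promoter of FAM228B 5.13. The median fold of the R5020 Maf1 list was 4.30 and its 90th percentile 8.78. Lead sites were taken as the highest −log10 q of each window, in loci chosen for top Maf1 values. Weaker Maf1 elsewhere in a window, start sites included, therefore follows from the choice.

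Of the 38 R5020 Maf1 regions in the windows, 36 overlapped R5020 PR, against 82.1% of all R5020 Maf1 regions. A PR summit lay within 100 bp at 24, against 57%. Vehicle PR overlapped 10, against 19.9%. R5020 H3K27Ac overlapped 34, against 76.5%, and vehicle H3K27Ac 33, against 70.8%. Vehicle Maf1 overlapped 4. Over the list its share was 47% at Maf1 ranks 1 to 100, 23.8% at 101 to 1000, 19.0% at 1001 to 10000 and 5.08% below. Brf1 overlapped 6 of the 9 with a Maf1 fold of at least 10 and 0 of the 29 below. These 9 include the 4 lead sites, all of them with Brf1. Over the list the share with R5020 Brf1 was 63% at Maf1 ranks 1 to 100 and 8% at 101 to 1000. It was 2.33% at 1001 to 10000 and 1.51% below, so few would be found among weak regions anywhere. Shares over the list above and below a fold of 10 were not computed. Across the 36 regions with both, Maf1 and PR folds had a Spearman rho of 0.60, and of 0.49 over the 32 left without the lead sites. Over all 18633 R5020 Maf1 regions with PR it was 0.49. Regions of 1 window share their libraries and local chromatin, and several share a PR region, so these are descriptions.

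**Figure D5:**
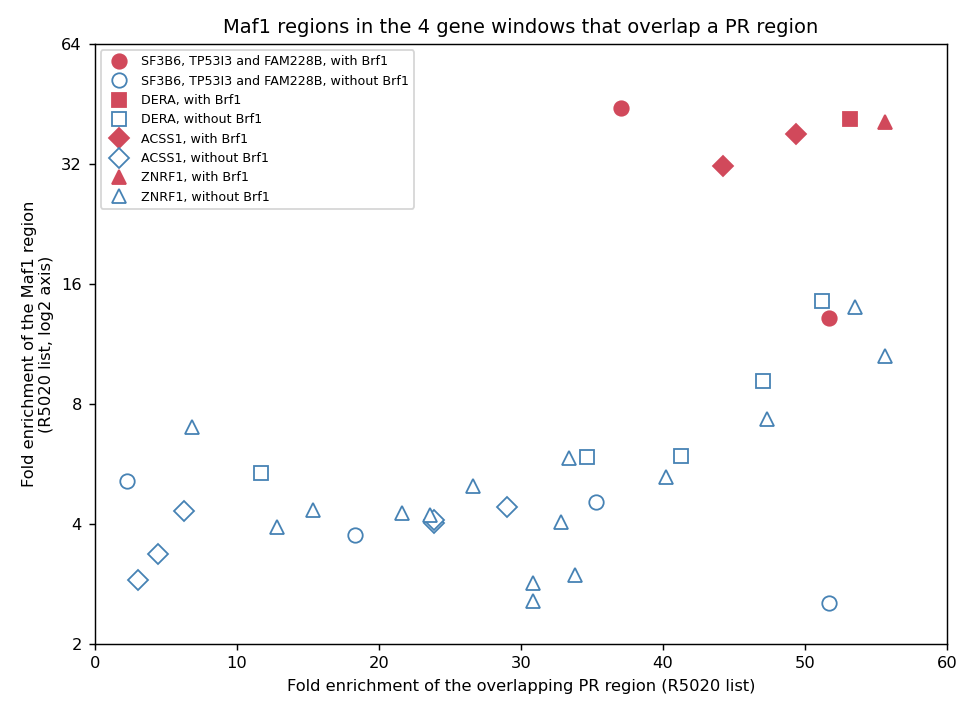
Maf1 fold (y axis, log2 scale) against the fold of the overlapping PR region (x axis) for the 36 R5020 Maf1 regions of the windows with PR; marker shapes are the windows and filled red markers overlap R5020 Brf1. The 6 filled markers lie at Maf1 folds of 13.1 to 44.2 and PR folds of 37.0 to 55.6.

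PR regions were far more numerous than Maf1 regions in the windows: 133 in R5020 (15 on chromosome 2, 42 at DERA, 29 at ACSS1 and 47 at ZNRF1) and 11 in vehicle (1, 3, 2 and 5). Of the 133, 32 overlapped an R5020 Maf1 region, in windows chosen for their Maf1 values. Those 32 had a median PR fold of 33.1, and the 101 without Maf1 had 7.51, with a highest value of 36.8. The 32 include the PR regions at the lead sites. The same share and medians over all R5020 PR regions were not computed, so the contrast describes these windows only. All 6 genes had PR within 20 kb in both treatments, as did 28% of genes in vehicle and 93.7% in R5020. In number of R5020 PR regions ZNRF1 was matched or exceeded by 1.2% of genes, DERA by 1.63%, ACSS1 by 4.11%, and FAM228B with 12 by 23.5%. SF3B6 with 8 and TP53I3 with 6 stood at 42.7% and 56.3%. The PR counts were not adjusted for gene length either, and these 2 genes are the shortest of the 6.

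All 6 genes had H3K27Ac within 20 kb in both treatments, as did 82.5% of genes in vehicle and 83% in R5020. The windows held 129 of the 88870 vehicle and 156 of the 112543 R5020 H3K27Ac regions. All 6 also had an R5020 Brf1 region within 20 kb, against 3.61% of genes, and none had a vehicle one, against 1.31%. Of the 6 Brf1 regions, 2 lay on chromosome 2, 2 at ACSS1, and 1 each at DERA and ZNRF1. POLR3A was within 20 kb of 2.21% of genes in vehicle and 2.39% in R5020, and of none of the 6. POLR3G had 74 of its 58424 vehicle and 58 of its 46875 R5020 regions in the windows. SF3B6, TP53I3 and FAM228B share most of their regions and do not count as separate sites.

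Just outside the choice of loci lay the following regions. In the vehicle Maf1 list ranks 2 and 3 by −log10 q lay in NPAS4 (chr11:66421519-66422177, fold 22.4) and TIMM22 (chr17:996693-997314, fold 31.9). Both overlapped R5020 PR and POLR3G but neither Brf1 nor POLR3C, and the NPAS4 region overlapped no H3K27Ac. In the R5020 list the second spanned chr21:8988814-9013137 (fold 32.1), 1148 bp from MIR10396A. The next lay in SNORD3A, the gene of the U3 small nucleolar RNA (fold 34.0), and like the chromosome 2 site overlapped POLR3C in both treatments. Neither of these R5020 Maf1 regions overlapped POLR3A. Among R5020 Maf1 regions with no vehicle region nearby, the fourth to sixth lay 3111 bp from PACSIN1 (fold 34.4), 9972 bp from C9orf152 (36.5) and 3838 bp from CALML5 (30.8). All 3 overlapped PR in both treatments, R5020 Brf1 and H3K27Ac. The −log10 q was 264.7 for ZNRF1, the last inside, and 259.4 for the region near PACSIN1.

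Other genes of the same complexes or pathways had lower highest Maf1 folds than the 6 genes, which were chosen for theirs. Of 6 genes of the SF3b complex other than SF3B6, 5 had an R5020 Maf1 region within 20 kb and 2 a vehicle one. After SF3B6 the highest R5020 Maf1 folds were 9.00 at SF3B2 and 8.68 at PHF5A. Of 17 p53-responsive genes other than TP53I3, 15 had an R5020 region. BBC3, a pro-apoptotic gene, was at 14.0, and MDM2, the ligase that degrades p53, at 6.77. BAX and TIGAR had none. Of 8 deoxyribose and nucleoside metabolism genes other than DERA, 5 had one, including TYMP, thymidine phosphorylase, at 12.4 and 5 vehicle regions. These counts leave out the chosen genes and stand beside 60% of all genes in R5020 and 19.2% in vehicle.

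Of 11 acetyl-CoA supply genes other than ACSS1, 9 had an R5020 Maf1 region. PDHA1, a pyruvate dehydrogenase subunit, had a fold of 13.1, ACLY, the cytosolic citrate lyase, 5.92, and ACSS2, the cytosolic counterpart of ACSS1, 3.92. Of 4 ZNRF and RNF43 ligases other than ZNRF1, 3 had one, with ZNRF3, which removes Wnt receptors from the cell surface, at 15.2. FAM228A, the neighbour of FAM228B, had 4.54. Among genes read by polymerase II at which Maf1 was described, CDKN1A had a fold of 6.64, FASN 6.61 with 10 regions, and TBP and ACACA 4.34 each. In vehicle FASN had 4.44, and CDKN1A, TBP and ACACA had none. Outside the 6 genes no gene of these lists had an R5020 Brf1 region, and no gene of the lists had R5020 POLR3A.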

How the data were processed

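ChIP-seq peak lists of 8 antibodies in T47D cells after vehicle or R5020 were analysed, 1 list for each group of 3 libraries, with samples grouped by title. The submitters' processing notes name cutadapt, Bowtie2, MACS2 and hg38; how replicates were combined is not given in the sources used here. Per the layout of the files, each deposited region has a fold enrichment (the signal ratio at its summit), a −log10 q-value and another value from the authors, the offset of the summit from the start. Coordinates are 1-based. Rows outside chromosomes 1 to 22, X and Y were dropped. Overlap meant at least 1 bp in common. Gene spans came from RefSeq, GRCh38.p14. The members and gene lists were chosen with earlier results of these data known. Named loci were the 6 genes, the next ranked Maf1 regions, those with the same overlap pattern, and genes of the lists, of which 1 is not reported here. No test was made, since there is 1 list per group. Alternatives were −log10 q of at least 5, 5 kb windows, 50% reciprocal overlap and other summit distances. Overlap code was tested on simulated data (Python 3.11.15, numpy 2.4.6, matplotlib 3.10.9). Depth is unknown.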

Additional observations from a re-analysis of the deposited data

How the results depend on the processing

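No paired analysis was possible because each group has 1 list without replicate numbers; leaving out a replicate was not possible either. Requiring 50% of both regions in common left R5020 PR at 2 lead sites, POLR3G at 1 in each treatment, and Brf1 in R5020, H3K27Ac, POLR3C and R5020 POLR3GL at 0; these regions differ in width from the Maf1 regions. The shares of all R5020 Maf1 regions then became, vehicle before R5020, 11.9% and 22.0% for PR, 0.154% and 0.772% for Brf1, 3.63% and 3.64% for H3K27Ac, 0.168% and 0.533% for POLR3A, 0.701% and 0.732% for POLR3C, 12.3% and 16.9% for POLR3G, and 0.0573% and 0.0838% for POLR3GL.

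With −log10 q of at least 5, POLR3G remained at 1 lead site in vehicle and 2 in R5020, and POLR3GL at 0. The windows then held 67 vehicle and 81 R5020 H3K27Ac regions, 12 and 10 of POLR3G, and 0 of POLR3GL in either treatment. The shares became 14.1% and 78.0% for PR, 1.80% for R5020 Brf1, 65.8% and 71.5% for H3K27Ac, 1.02% for R5020 POLR3A, 1.16% and 1.20% for POLR3C, 30.4% and 24.9% for POLR3G, and 0.0838% and 0.110% for POLR3GL. Brf1 in R5020 was then left at 3 lead sites, without the one on chromosome 2, while PR stayed at 2 in vehicle and 4 in R5020 and H3K27Ac at 4 in both treatments.

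At 50 and 250 bp in place of 100 bp the shares with a near summit were 46.0% and 67.1% for PR, 1.23% and 2.03% for Brf1, and 3.19% and 31.0% for H3K27Ac. With 5 kb windows the vehicle POLR3GL region at DERA was lost (0 left), and 1 nucleoside metabolism gene had vehicle Maf1. Elsewhere the cause of a changed value was not tested. Lists of unknown depth set what could be found: the absence of POLR3A means that no region was called.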
